A study of Ostrinia furnacalis with 30 samples.

Results

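The last larval stage of the Asian corn borer, *Ostrinia furnacalis*, was compared with the pupa that follows it, gene by gene over the whole transcriptome. The Asian corn borer is a moth whose larvae bore into maize. The genes were those with a value of at least 1 FPKM (sequenced fragments per length of gene and size of library, the unit of the deposited table) in at least 3 of the 6 libraries of these stages, which kept 12145 of the 20852 gene models. The 5th instar libraries were made from mature larvae and the pupal libraries from pupae, with females and males mixed in equal parts, and each stage had 3 libraries. All were wild-type insects from a colony reared on an artificial diet, taken whole, with several animals pooled in a library. The age of the pupae and the sex of the larvae are unstated in the sources used here, so a stage stands for the moment at which it was sampled. A library is a pool of animals and the p-values measure only the spread between these pools. In whole animals, fewer cells of a type and less RNA per cell cannot be told apart.

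Insect metamorphosis is run by a pair of hormones. Pulses of ecdysone, a steroid made in the prothoracic gland, start each moult, and juvenile hormone, a lipid made in the corpora allata, keeps a moult larval. When juvenile hormone falls in the last instar the larva stops feeding, builds up storage proteins in its fat body, spins silk and forms a pupa, in which larval gut and muscle are broken down and adult organs are built under a new cuticle. The comparison followed these systems in turn, by lists of genes drawn up from the gene descriptions in the deposited table.

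The recovered depth was 15592402 to 17083478 fragments in the 5th instar libraries and 12855190 to 14156014 in the pupal ones. The 10 most abundant genes took 20.7 to 34.8% of the fragments in the larvae and 9.003 to 9.70% in the pupae, and transcripts of the mitochondrial genome took 7.03 to 15.1% and 2.32 to 2.51%. Within a stage the libraries correlated over genes at 0.927 to 0.953 in the larvae and at 0.941 to 0.954 in the pupae. The deposited values had been scaled by a library size that was 0.745 to 1.13 times the fragments in the larvae and 1.57 to 1.75 times in the pupae, and this scaling bears on every comparison of levels. Scaling by the recovered fragments instead moved the median log2 fold change of all genes from 0.03 to 0.78, a shift of 0.75. Medians on that scale are therefore given below relative to the median of all genes, unless stated otherwise. Subtracting that median takes the shift out again, so a relative median lies near that of the deposited scaling largely by construction. It does not test whether a change holds under both scalings. The cytoplasmic small subunit ribosomal RNA LOC114364941, a sign of how well poly-A selection worked, had 2392, 5302 and 26057 FPKM in the larvae and 1291, 1325 and 1795 in the pupae. 5th instar replicate 3 stood far above the rest, and the part of this in the results was not tested.

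Of the genes tested, 950 were higher and 1500 lower in the pupa by limma on log2(FPKM + 1), at a Benjamini-Hochberg adjusted p under 0.05 and a change of at least 1 on the log2 scale. These were 7.82% and 12.4% of the genes tested, together 20.2%, and they are the background for each group below. The higher genes were 38.8% of all calls in the deposited scaling and 84.4% with fragment scaling, which tested 12891 genes and gave 4561 higher (35.4%) and 842 lower (6.53%), the background for the counts with fragment scaling below. All 950 higher genes and 831 of the lower ones were called the same way in both scalings. In the deposited scaling more genes fell far than rose far: 140 genes fell by more than 5 on the log2 scale and 40 rose by more, with median changes of -1.92 among the lower and 1.45 among the higher genes. In the pupa, 23 of the lower genes were at 0 in all 3 libraries, and 14 of the higher ones were at 0 in all 3 larval libraries. Many more lay near the floor: 456 of the lower genes had a pupal mean under 1 FPKM and 288 of the higher ones a larval mean under 1. Such genes passed the filter mainly or only through the stage where they were high, which bears on the counts of each group below. No description was available for 367 of the higher and 350 of the lower genes.

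**Figure D1:**
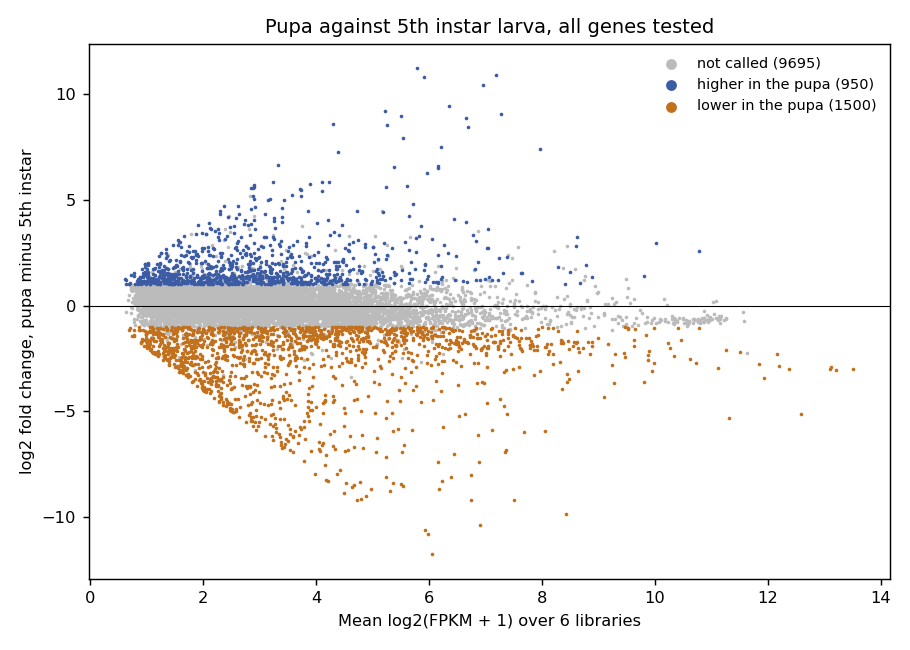
Log2 fold change of the pupa over the 5th instar (vertical axis) against the mean log2(FPKM + 1) of the 6 libraries (horizontal axis), 1 point a gene, with the 950 genes called higher and the 1500 called lower in colour. The deepest losses reach below -10 and include many abundant genes; with fragment scaling the median of all genes lies 0.75 higher and the calls become 4561 higher and 842 lower.

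Receptors and transcription factors that respond to ecdysone were higher in the pupa in part, while the enzymes that make the hormone were nearly all without a call. Of 12 response factors tested 4 rose and none fell (5 higher and 1 lower at an unadjusted p under 0.05, and 4 and 0 by limma-voom on the recovered fragments), with a median of 0.40. Of 7 genes of ecdysone synthesis and breakdown 1 fell and none rose, also by limma-voom and at an unadjusted p under 0.05, and 2 rose with pupa replicate 3 left out. With fragment scaling 2 of the 7 were higher and none lower.

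HR3, an orphan receptor that ecdysone induces and that in *Drosophila* switches on FTZ-F1, had 0.278, 0.315 and 0.221 FPKM in the larvae and 13.3, 3.7002 and 34.4 in the pupae (LOC114365423; log2 fold change 3.39, standard error 0.67, adjusted p = 0.0118). Every pupal library lay far above every larval one, but the pupae differed among themselves, with the lowest in replicate 2. Ecdysone-induced protein 78C (LOC114359275), a related receptor, had 1.17, 0.267 and 0.866 FPKM in the larvae and 38.1, 5.16 and 18.1 in the pupae (log2 fold change 3.27, standard error 0.65, adjusted p = 0.0118). It also spread widely in the pupae and was lowest in the same library. Hormone receptor 4 (LOC114365349) was near 0 in the larvae, at 0.365, 0.0114 and 0.0583 FPKM, and at 3.09, 2.84 and 11.7 in the pupae (log2 fold change 2.36, standard error 0.47, adjusted p = 0.012). HR38 (LOC114354565), a receptor that *Drosophila* uses in forming adult cuticle, rose by 1.76 on the log2 scale (adjusted p = 0.0232), a call that was lost with any of 5th instar replicates 2 and 3 or pupa replicates 2 and 3 left out (1.43 to 1.70, adjusted p 0.064 to 0.079). The gene LOC114352272, described as mushroom body large-type Kenyon cell-specific protein 1, was chosen after its values were seen. Its *Drosophila* homologue is E93, the ecdysone-induced factor that specifies adult development. It had 0.269, 0 and 0.947 FPKM in the larvae and 7.08, 5.39 and 3.33 in the pupae (log2 fold change 2.17, standard error 0.33, adjusted p = 0.00527), with no overlap between the stages.

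The ecdysone receptor itself (LOC114360304) and its partner ultraspiracle (LOC114364694) overlapped between the stages and were not called. The receptor had 33.5, 21.5 and 24.5 FPKM in the larvae and 36.5, 36.97 and 23.6 in the pupae, and ultraspiracle 11.7, 13.4 and 14.1 and 8.66, 14.6 and 12.3 (log2 fold changes 0.27 and -0.16). E75 (LOC114356920), an early ecdysone gene, had 38.02, 43.2 and 41.8 FPKM in the larvae and 80.3, 45.7 and 73.6 in the pupae and missed the threshold (log2 fold change 0.65, adjusted p = 0.0792). The same held for E74 (LOC114357979; log2 fold change 0.44, adjusted p = 0.12) and FTZ-F1 (LOC114354093; log2 fold change -0.59, adjusted p = 0.0804). The 2 genes described as broad-complex core protein, the factor that specifies the pupa in other insects, overlapped between the stages: LOC114351852 had 2.498, 2.95 and 4.45 FPKM in the larvae and 0.539, 1.61 and 2.51 in the pupae, and LOC114361455 had 9.65, 4.24 and 6.93 and 3.37, 9.295 and 10.8. With fragment scaling E74, E75 and the ecdysone receptor were called higher as well, which made 7 of 14 tested. In that scaling 35.4% of all genes were higher, and the median of the response factors was 0.27 relative to all genes.

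Among the steroid enzymes the gene that fell was P450 306a1 (LOC114361704), the 25-hydroxylase known as phantom in *Drosophila*. It had 11.6, 11.2 and 13.8 FPKM in the larvae and 3.76, 4.64 and 3.01 in the pupae (log2 fold change -1.47, standard error 0.19, adjusted p = 0.00306), and with fragment scaling the change was -0.68 and no call. P450 307a1 (LOC114359032), or spook, had 9.07, 11.9 and 2.59 FPKM in the larvae and 12.3, 16.02 and 5.097 in the pupae, with overlap. Ecdysone 20-monooxygenase (LOC114364622), which makes the active hormone, had 1.902, 1.58 and 1.86 and 2.19, 2.78 and 11.3 FPKM, and P450 18a1 (LOC114361699), which inactivates it, 14.1, 2.46 and 13.7 and 8.65, 10.4 and 8.92; neither was called. Prothoracicotropic hormone (LOC114360454), the brain peptide that drives the gland, had 5.402, 7.52 and 3.65 FPKM in the larvae and 6.38, 8.94 and 6.46 in the pupae, again without a call.

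Of 21 genes tested that are described as handling juvenile hormone, 12 were lower and none higher in the pupa (13 lower and none higher at an unadjusted p under 0.05, 12 and 0 by limma-voom), with a median of -1.80, and with fragment scaling 11 of 23 were lower and 2 higher at a median of -1.76 relative to all genes. The 12 were 7 of the esterase-like genes and 4 of the epoxide hydrolase-like genes, 2 families that break the hormone down, and 1 binding protein. These descriptions rest on sequence likeness, and which substrate each enzyme acts on was not measured. In 3rd instar larvae the highest tissue differed from gene to gene. It was the midgut for LOC114364939 (924, 696 and 774 FPKM), the silk gland for LOC114360960 (599, 878 and 613) and the fat body for LOC114360143 (882, 876 and 749). The part of these tissues in the falls was not tested. The esterase-like gene LOC114365528 had 194, 325 and 246 FPKM in the larvae and was listed at 0 in all 3 pupal libraries, so it was at least 10854-fold lower in the pupa, against a floor of 3 fragments over the 3 libraries. No other gene of the list was as abundant in the larvae. The binding protein-like gene LOC114350705 was also at 0 in all pupae and had 4.94, 3.24 and 3.17 FPKM in the larvae, at least 82.3-fold lower. The epoxide hydrolase-like gene LOC114360143 had 36.8, 94.9 and 107 FPKM in the larvae and 19.7, 15.97 and 21.8 in the pupae (log2 fold change -1.87, standard error 0.41, adjusted p = 0.0159). Its call was lost without 5th instar replicate 2 or pupa replicate 1 or 2 (adjusted p 0.054 to 0.062), and that of LOC114359902, another epoxide hydrolase-like gene at 1.23 to 3.05 FPKM in the larvae, without pupa replicate 2 (-1.17, adjusted p = 0.056). The second binding protein-like gene tested, LOC114362130, had 41.2, 72.4 and 173 FPKM in the larvae and 38.5, 25.05 and 31.5 in the pupae and was not called (adjusted p = 0.0828).

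Takeout-like proteins, which share their fold with the juvenile hormone-binding proteins, moved in both directions: 6 of 16 tested were lower and 2 higher (1 higher without 5th instar replicate 2 or 3 or pupa replicate 2). Their median was -0.55 in the deposited scaling. With fragment scaling it was 0.28, or -0.51 relative to all genes, and 5 were lower and 5 higher. LOC114363181 had 219, 1716 and 1515 FPKM in the larvae and 0.746, 1.31 and 0.668 in the pupae (log2 fold change -8.78, standard error 0.77, adjusted p = 0.00109). LOC114363299 went the other way, from 7.39, 4.099 and 6.02 to 83.2, 55.005 and 62.8 FPKM (log2 fold change 3.32, standard error 0.25, adjusted p = 6.99e-04). Insulin and TOR signalling, which couples growth to food, gave 1 lower gene of 13 tested and none higher (3 higher and 2 lower at an unadjusted p under 0.05, none by limma-voom), the insulin-like peptide bombyxin B-10-like (LOC114363628), at 1.32, 2.52 and 2.16 FPKM in the larvae and 0.475, 0.452 and 0 in the pupae. The median of the insulin and TOR list was 0.34, and 0.18 relative to all genes with fragment scaling. In that scaling 7 of 14 were higher and none lower, and the bombyxin had no call (-0.87).

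**Figure D2:**
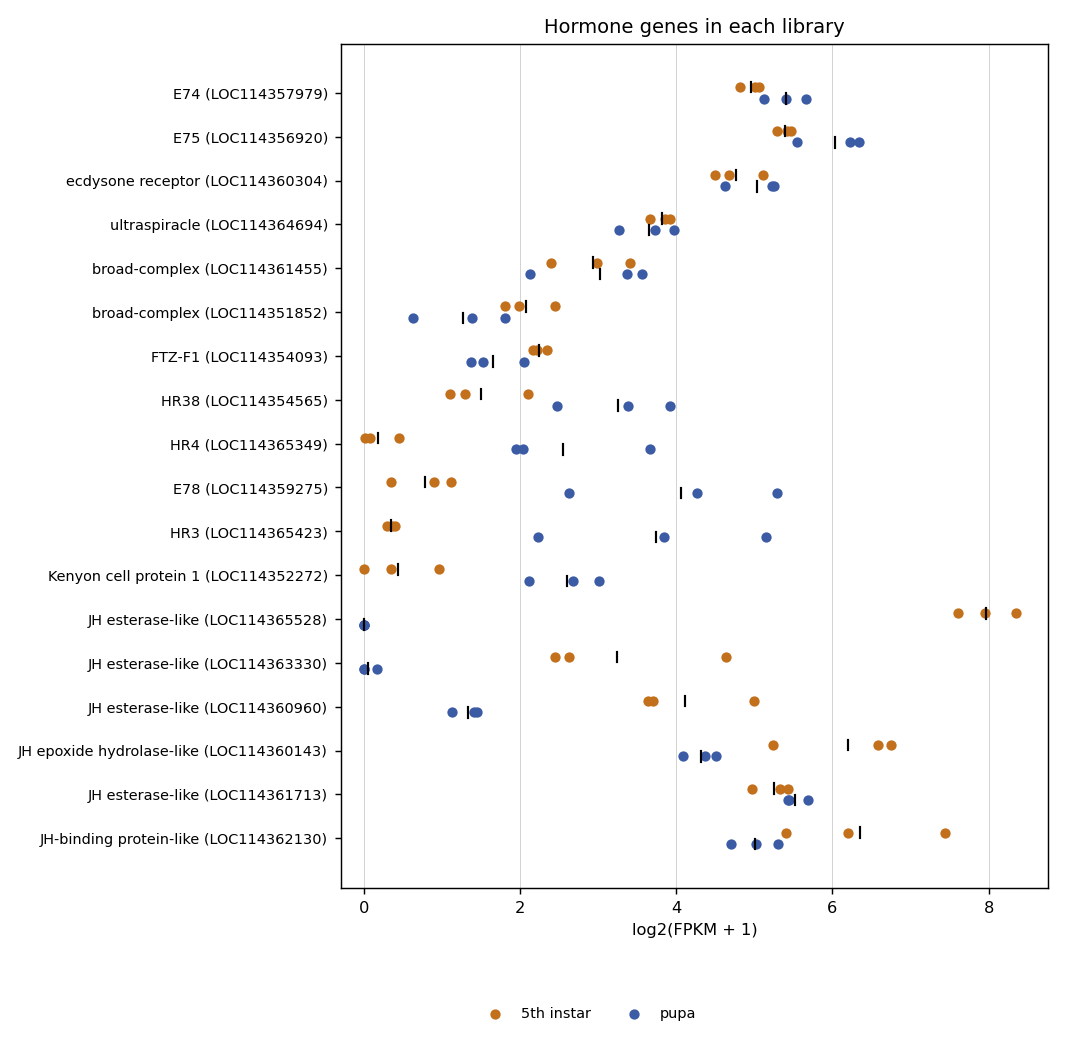
Levels of genes of the ecdysone and juvenile hormone systems as log2(FPKM + 1) on the horizontal axis, 1 point a library (orange, 5th instar; blue, pupa) with black ticks at the stage means. HR3, E78C and HR4 lie higher in every pupal library, the esterase-like gene LOC114365528 lies at 0 in all 3 pupae, and the ecdysone receptor and ultraspiracle overlap. With fragment scaling, where 35.4% of all genes are called higher, the ecdysone receptor, E74 and E75 are called higher as well.

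The cuticle, the secreted outer layer of chitin fibres and structural proteins that is made anew at each moult, gave large changes in both directions. Of 23 genes listed as pupal cuticle proteins 13 were higher and none lower in the pupa (18 and 0 at an unadjusted p under 0.05), with a median of 3.49. This list included the genes described as larval/pupal cuticle protein H1C-like. LOC114362179, LOC114362180, LOC114362181 and LOC114362182, which have that description, were among the 13. Of 14 genes described as larval cuticle proteins, not counting those described as larval/pupal, 9 were lower and 1 higher, with a median of -2.94. The other cuticle proteins, which included those described as larval/pupal rigid cuticle proteins, went both ways, 13 higher and 8 lower of 32. The endocuticle structural glycoproteins, named after proteins of the inner cuticle of locusts, gave 5 lower and 2 higher of 12. Larval cuticle proteins took 2.30 ± 1.40% of all fragments in the larvae and 0.083 ± 0.008% in the pupae (SD, n = 3), and pupal cuticle proteins 0.020 ± 0.014% and 1.54 ± 0.59%. These shares rest on fragments and not on the deposited scaling. The counts and shares depend in part on how the genes with larval/pupal names were sorted, and another sorting was not tested.

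Some of these counts leaned on single libraries. Without pupa replicate 2 the pupal cuticle proteins gave 7 higher genes, as they did by limma-voom. Without pupa replicate 1 the other cuticle proteins gave 21 higher and the larval cuticle proteins 2 higher genes. The endocuticle list gave 9 lower genes without 5th instar replicate 1, and 1 higher gene without 5th instar replicate 2 or pupa replicate 1 or 3. With fragment scaling 21 of 25 pupal cuticle proteins were higher and none lower, 10 of 16 larval ones were lower and 4 higher, 22 of 38 other ones were higher and 9 lower, and 4 of 13 of the endocuticle list were higher and 4 lower. The medians relative to all genes were then 3.44 for the pupal, -3.26 for the larval, 1.76 for the other and -1.27 for the endocuticle list.

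The pupal cuticle protein PCP52-like (LOC114362178) was among the 6 most abundant genes of the pupa. It had 2.23, 7.35 and 0.364 FPKM in the larvae and 6145, 5440.2 and 7546 in the pupae (log2 fold change 10.89, standard error 0.61, adjusted p = 2.80e-04). The gene lies on scaffold NW_021136486.1 of the ASM419383v1 assembly, at 42055 to 45084 on the minus strand, in a run of 7 cuticle genes between 20206 and 74699. All 7 are on the same strand, 6 of them were higher in the pupa and none was lower. At one end of the run, LOC114362183 (cuticle protein 1-like) had 6.49, 174 and 4.497 FPKM in the larvae and 2223, 2682 and 5713 in the pupae (log2 fold change 7.39, standard error 1.29, adjusted p = 0.00775), with 5th instar replicate 2 well above the other larvae. The other 5 genes of the run are described as larval/pupal cuticle protein H1C-like and were lowest in pupa replicate 1. Of these LOC114362181 had 0.196, 8.12 and 0.384 FPKM in the larvae and 33.9, 117 and 684 in the pupae (log2 fold change 5.84, standard error 1.22, adjusted p = 0.0142). LOC114362179 was at the edge of the threshold (log2 fold change 4.42, adjusted p = 0.0499), overlapped between the stages and lost its call without 5th instar replicate 1 or 3 or pupa replicate 2 or 3 (3.41 to 4.34, adjusted p 0.098 to 0.14). LOC114362180 lost its call without pupa replicate 2 (5.73, adjusted p = 0.052), and LOC114362182 without 5th instar replicate 3 or pupa replicate 2 or 3 (4.29 to 5.02, adjusted p 0.051 to 0.061). By limma-voom LOC114362181 lost its call (7.31, adjusted p = 0.073), as did LOC114362179, LOC114362180 and LOC114362182 (4.69 to 7.45, adjusted p 0.073 to 0.22). LOC114362184, which had no call, lies inside LOC114362180 on the same strand, so reads of this pair could not be told apart with certainty, and the division of reads among near-identical copies is likewise uncertain.

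Elsewhere the strongest increases of cuticle genes were of like size. Cuticle protein 16.5-like LOC114349595 went from 1.09, 0.367 and 0 FPKM in the larvae to 2659, 2200.3 and 2892 in the pupae (log2 fold change 10.82, standard error 0.29, adjusted p = 2.49e-05). Larval/pupal rigid cuticle protein 66-like LOC114366369, on scaffold NW_021130868.1, had 0, 17.1 and 1.03 FPKM in the larvae and 2117, 4382 and 10500.000 in the pupae (log2 fold change 10.44, standard error 1.11, adjusted p = 0.00177). In both the stages did not overlap, and the second was highest in pupa replicate 3. A further rigid cuticle protein 66-like gene, LOC114357802, rose from 0.102, 91.4 and 0 to 803, 2811 and 4626 FPKM (log2 fold change 8.87, standard error 1.78, adjusted p = 0.0123), and 5th instar replicate 2 was again the larval library that stood above the rest. Without that library the pupal and the other cuticle proteins gave 13 higher genes each, as with it. The reason for its higher values was not tested. The remaining cuticle genes among the 12 largest rises, LOC114357722, LOC114352836 and LOC114362736, increased by 9.45, 8.53 and 7.51 on the log2 scale.

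Other cuticle genes fell. Larval cuticle protein LCP-17-like (LOC114358754) had 1245, 6228 and 7880.4 FPKM in the larvae and 0, 0.143 and 0.239 in the pupae (log2 fold change -11.78, standard error 0.67, adjusted p = 2.86e-04), the largest fall among the genes named here. Its neighbours on scaffold NW_021134344.1, at 487168 to 530397 on the plus strand, were the LCP-14-like gene LOC114358755, with 4669, 28603 and 30096 and 571, 536 and 215 FPKM, and the LCP-17-like gene LOC114358752, with 137, 852 and 651 and 0, 0.476 and 0.303. They fell by 5.29 and 8.42 on the log2 scale, while LOC114358775, the last gene of the row, overlapped between the stages at 44.5, 584 and 93.3 and 33.8, 92.6 and 168 FPKM and had no call. Larval cuticle protein 1-like LOC114364505 had 2255, 22373 and 23158 FPKM in the larvae and 5.799, 5.81 and 29.4 in the pupae (log2 fold change -9.88, standard error 1.04, adjusted p = 0.00172). In each of these 5 genes 5th instar replicate 1 was the lowest of the larvae. Cuticle protein 16.5-like genes went both ways: LOC114357688 and LOC114359849 had log2 fold changes of -10.80 and -10.63, from 522, 4329 and 8503 and from 355, 4708 and 8631 FPKM, while LOC114357722 and LOC114349595 rose. On scaffold NW_021133562.1 both kinds lay close together. Among 18 cuticle genes between 184852 and 365491, of which 16 were tested, 3 were higher and 5 lower in the pupa. The higher LOC114357716 and LOC114357722 lie at 240780 to 249292, while LOC114357691, LOC114357688, LOC114357689 and LOC114357687, at 354483 to 365491, were all lower.

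**Figure D3:**
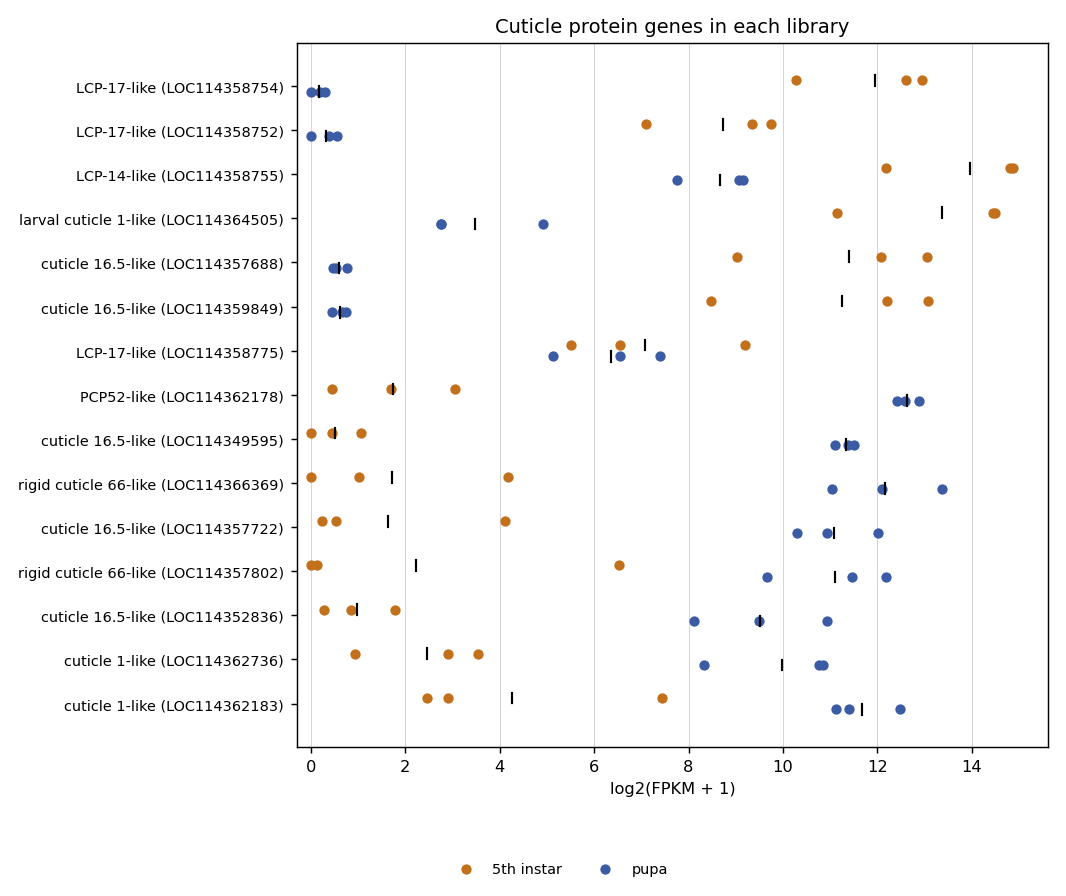
Levels of cuticle protein genes as log2(FPKM + 1) on the horizontal axis, 1 point a library (orange, 5th instar; blue, pupa) with black ticks at the stage means. The 2 stages lie at opposite ends for most genes; 5th instar replicate 1 is the lowest larval point of several larval genes and 5th instar replicate 2 the highest larval point of several pupal ones.

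Of 22 chitin enzymes tested 4 were higher and 4 lower, with a median of 0.10, and 9 were higher and 4 lower with fragment scaling. The 2 genes described as chitin synthase chs-2-like went in opposite directions. LOC114354477 had 7.84, 9.28 and 8.61 FPKM in the larvae and 38.3, 58.02 and 87.4 in the pupae (log2 fold change 2.63, standard error 0.30, adjusted p = 0.00218), and its level in the midgut of 3rd instar larvae was low, at a mean of 1.41 FPKM. LOC114357634 had 24.9, 19.05 and 6.95 FPKM in the larvae and 2.13, 2.88 and 2.799 in the pupae (log2 fold change -2.16, standard error 0.43, adjusted p = 0.0122), and its mean in that midgut was 415 FPKM. Insects as a rule have a synthase for the epidermis and another for the lining of the gut. Probable chitinase 2 (LOC114366246) fell from 16.8, 69.1 and 74.8 to 0.213, 0.2599 and 0.0963 FPKM, and chitinase-3-like protein 2 (LOC114366242) was at 0 in all larvae and at 5.24, 10.2 and 8.06 FPKM in the pupae, at least 230-fold higher.

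Of 17 genes for tanning, the hardening and darkening of new cuticle, 4 were lower and 1 higher (2 and 3 with fragment scaling). Protein yellow-like LOC114363199, of a family needed for black pigment in *Drosophila*, fell from 172, 191 and 171 to 5.26, 18.02 and 10.4 FPKM (log2 fold change -4.01, standard error 0.39, adjusted p = 0.00135). Protein yellow (LOC114355924) fell by 2.03 on the log2 scale, and laccase-1-like LOC114359737 and laccase-2-like LOC114354122, of the family that oxidises cuticle catechols, by 1.44 and 1.03. The 2 laccase-like genes lost their calls with fragment scaling (-0.61 and -0.54), and LOC114354122 without 5th instar replicate 1 or pupa replicate 3 (-0.97 and -0.96). The higher gene, yellow-like LOC114363200, at 1.51, 2.49 and 0.716 and 3.9005, 4.399 and 7.24 FPKM, lost its call with 5th instar replicate 1 or 3 or any of the pupae left out (1.02 to 1.43, adjusted p 0.052 to 0.076). Tyrosine 3-monooxygenase (LOC114361187), the first enzyme of the pathway, ranged from 42.3 to 166 FPKM in the larvae and from 48.6 to 300 in the pupae, without a call.

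Most storage proteins of the hemolymph fell, and several genes of a list of lipid carriers, yolk and eggshell rose. Of 7 hexamerins, the proteins that the larval fat body stores as amino acids for building the adult, 6 were lower and none higher in the pupa, also by limma-voom and at an unadjusted p under 0.05, and with fragment scaling. Their share of all fragments was 1.75 ± 1.36% in the larvae and 0.218 ± 0.055% in the pupae (SD, n = 3). Arylphorin subunit alpha-like LOC114353553 had 482, 1329 and 4826 FPKM in the larvae and 2.43, 2.17 and 3.22 in the pupae (log2 fold change -8.67, standard error 0.76, adjusted p = 0.0011). A second arylphorin, LOC114359093, had nearly the same values, 412, 1330.2 and 4916 and 4.83, 2.097 and 6.02 FPKM, and reads of these close copies may be shared between them. Acidic juvenile hormone-suppressible protein 1-like (LOC114359098) fell from 977, 1662 and 3535 to 18.3, 11.3 and 12.3 FPKM (log2 fold change -6.94, standard error 0.47, adjusted p = 5.01e-04). The basic form LOC114360699 fell by 5.12 and lost its call without pupa replicate 1 or 3 (-4.17 and -5.27, adjusted p 0.055 and 0.052). The exception was LOC114359670, a basic juvenile hormone-suppressible protein 2-like gene, with 1502, 125 and 1265 FPKM in the larvae and 410.4, 601 and 439 in the pupae. Its larval libraries alone spread by more than the stages differed (log2 fold change -0.38, adjusted p = 0.78). Without 5th instar replicate 2 it was lower too (-1.53, adjusted p = 0.013), and all 7 were then called.

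Of 23 lipid carriers and yolk and eggshell genes 10 were tested, of which 6 were higher and 1 lower, with a median of 2.71. There were 2 lower without 5th instar replicate 1, and 10 of 12 higher and 1 lower with fragment scaling. The list took 0.078 ± 0.016% of the fragments in the larvae and 1.12 ± 0.11% in the pupae (SD, n = 3). Apolipophorin-3-like LOC114355821, an exchangeable protein of the particles that carry lipid in hemolymph, had 574, 741 and 862 FPKM in the larvae and 4222, 4193 and 4403 in the pupae (log2 fold change 2.58, standard error 0.19, adjusted p = 6.54e-04). Apolipophorins-like LOC114366658, which encodes the core of those particles, went from 26.9, 26.4 and 51.9 to 400.5, 327 and 329.7 FPKM (log2 fold change 3.36, standard error 0.29, adjusted p = 0.00104). The replicates of each stage lay close together in both genes. The eggshell gene chorion class CA protein ERA.1-like (LOC114360621) was at 0 in all larvae and at 34.1, 203 and 136 FPKM in the pupae, at least 646-fold higher. The pupal pools held females. Another chorion gene, LOC114360625, was also at 0 in all larvae. Both passed the filter through the pupae alone, so among the genes tested they could only count as rises. Microvitellogenin-like LOC114365762, the lower gene, went from 6.25, 4.73 and 5.97 to 0.677, 0.521 and 0.443 FPKM. Of the serpins and other protease inhibitors 6 of 21 were lower and 4 higher, with a median of -0.38. With fragment scaling 6 were lower and 7 higher, and the median was 0.46, or -0.32 relative to all genes. Trypsin inhibitor-like LOC114349940, which the tissue libraries placed in the silk gland (mean 6978 FPKM), fell by 8.60 on the log2 scale.

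The pupa does not feed, and most trypsins, chymotrypsins and lipases were lower in it. Of 44 trypsins and chymotrypsins tested 28 were lower and 2 higher (median -2.86), of 47 lipases 33 and 5 (median -2.29), and of 32 aminopeptidases and carboxypeptidases 15 and 2 (median -1.12; 1 higher without pupa replicate 1). With fragment scaling, where 47, 47 and 32 were tested, 26 trypsins and chymotrypsins were lower and 8 higher, 32 lipases lower and 6 higher, and 13 aminopeptidases and carboxypeptidases lower and 10 higher. Glycosidases gave 6 lower and 5 higher genes of 20, and the higher ones were 3 without 5th instar replicate 2, 2 without 5th instar replicate 3 or pupa replicate 1, and 1 without pupa replicate 2. With fragment scaling 5 of 22 were lower and 7 higher, and the median was 0.39, or -0.39 relative to all genes. The share of all fragments (SD, n = 3) was 0.482 ± 0.236% in the larvae and 0.125 ± 0.034% in the pupae for trypsins and chymotrypsins, and 0.206 ± 0.024% and 0.102 ± 0.003% for lipases. Aminopeptidases and carboxypeptidases took 0.089 ± 0.021% and 0.129 ± 0.024%, and glycosidases 0.073 ± 0.001% and 0.101 ± 0.017%, with each pupal library above every larval one in both.

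Trypsin, alkaline C-like (LOC114351937) had 1834, 2970.1 and 1001 FPKM in the larvae and 6.68, 36.5 and 11.6 in the pupae (log2 fold change -6.84, standard error 0.65, adjusted p = 0.00127), and a mean of 49150.4 FPKM in the midgut libraries. Chymotrypsin-1-like LOC114354906 fell from 616, 794 and 259.7 to 2.04, 5.34 and 2.74 FPKM (log2 fold change -6.92, standard error 0.47, adjusted p = 5.08e-04). Both were lowest among the larvae in replicate 3. Against this, chymotrypsin-2-like LOC114359765 was at 0 in all larvae and at 704, 367 and 216 FPKM in the pupae, at least 6905-fold higher, and was at 0 in the midgut, fat body, hemolymph and silk gland libraries. Vitellin-degrading protease-like LOC114352627 likewise rose from 0.856, 0.437 and 0.359 to 851, 1235 and 681 FPKM (log2 fold change 9.19, standard error 0.26, adjusted p = 2.54e-05). Lipase 1-like LOC114352108 fell from 129.999, 420.02 and 563 to 0, 0 and 0.0785 FPKM (log2 fold change -8.26, standard error 0.52, adjusted p = 3.96e-04), and its highest tissue mean was in the silk gland. Lipase 3-like LOC114355141 and zinc carboxypeptidase-like LOC114351074 rose by 4.70 and 5.57 on the log2 scale, from at most 0.041 and 0.228 FPKM in the larvae.

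Sugar and amino acid transporters and the V-type proton pump, which are not confined to the gut, also gave lower genes in the deposited scaling. Sugar transporters, mostly named after the trehalose transporter Tret1, gave 24 lower and 4 higher genes of 57 (1 higher without 5th instar replicate 3 or pupa replicate 2, and 2 without pupa replicate 3). With fragment scaling 18 of 61 were lower and 15 higher. LOC114364850 fell from 29.2, 178 and 173 to 0.0923, 0.0658 and 0.146 FPKM (log2 fold change -6.47, standard error 0.67, adjusted p = 0.00168). Of 38 amino acid transporters 11 were lower and none higher (15 and 5 at an unadjusted p under 0.05, 10 and 2 by limma-voom), with 7 lower without pupa replicate 1, 2 higher without 5th instar replicate 2 and 1 higher without pupa replicate 3. Their median was -0.39 in the deposited scaling. With fragment scaling it was 0.20, or -0.59 relative to all genes, and 8 of 37 were lower and 8 higher. Of 18 subunits of the V-type proton pump, which acidifies compartments and energises the moth midgut, 10 were lower and none higher (16 and 0 at an unadjusted p under 0.05, 10 and 0 by limma-voom), with a median of -1.05. With fragment scaling none of 20 was lower and 1 was higher, and the median was -0.08, or -0.87 relative to all genes. In the deposited scaling the lower count was 3 without 5th instar replicate 2 or 3 and 2 without pupa replicate 1. It was 5 without pupa replicate 2 and 6 without pupa replicate 3, and 1 was higher without 5th instar replicate 2.

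Silk genes were lower in the pupa, all 4 of the 4 tested, with a median of -3.74 (none was higher, also by limma-voom and at an unadjusted p under 0.05). Fibroin light chain-like LOC114360339, a part of the silk filament, had 2116, 484 and 8642 FPKM in the larvae and 10.9, 65.4 and 48.4 in the pupae (log2 fold change -5.93, standard error 1.11, adjusted p = 0.00999), and a mean of 127859 FPKM in the silk gland. The larvae differed widely, with replicate 2 lowest and replicate 3 highest. The list gave 2 lower genes with fragment scaling and with any library but 5th instar replicate 2 left out.

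Many muscle transcripts fell. Of 37 genes of muscle contraction 24 were lower and 4 higher in the pupa (2 higher without 5th instar replicate 2 or 3 or pupa replicate 1 or 2), with a median of -1.92 and of -1.80 relative to all genes with fragment scaling, where 18 of 40 were lower and 5 higher. The list took 9.14 ± 2.56% of the fragments in the larvae and 3.25 ± 0.25% in the pupae (SD, n = 3). Muscle actin (LOC114358245) had 7261, 23520.2 and 19276 FPKM in the larvae and 1769.6, 1612 and 2295 in the pupae (log2 fold change -2.99, standard error 0.45, adjusted p = 0.0048). The myosin heavy chain (LOC114358802), the motor of the thick filament, went from 994, 3057 and 2658 to 389.7, 432 and 528 FPKM (log2 fold change -2.17, standard error 0.43, adjusted p = 0.0119). In both, 5th instar replicate 1 was the lowest larval library and the stages still did not overlap.

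Troponin C, the calcium sensor of the thin filament, was represented by several genes that did not move together. LOC114359674 and LOC114356629 fell by 3.95 and 3.60 on the log2 scale, the latter from 2711, 3612 and 3125 to 267, 234 and 274 FPKM. LOC114354116 rose from 50.2, 21.4 and 19.3 to 241, 179.95 and 199.97 FPKM (log2 fold change 2.85, standard error 0.37, adjusted p = 0.00301) and had a mean of 1851 FPKM in the adult. Actin, muscle-type A2 (LOC114366695) rose from 2.21, 5.78 and 3.42 to 53.2, 34.5 and 222 FPKM (log2 fold change 4.04, standard error 0.68, adjusted p = 0.00705), with a mean of 737 FPKM in the adult. Flightin (LOC114365033), a protein of flight muscle in *Drosophila*, overlapped between the stages at 26.3, 130.2 and 25.5 and 1.89, 5.12 and 29.4 FPKM and was not called (adjusted p = 0.0976).

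In the deposited scaling most genes of the respiratory chain were lower in the pupa, which did not hold with fragment scaling. Transcripts of the mitochondrial genome took 10.4 ± 4.19% of the fragments in the larvae and 2.40 ± 0.096% in the pupae (SD, n = 3). Cytochrome c oxidase subunit 1 (COX1), encoded there, had 19115, 49144 and 20619 FPKM in the larvae and 3269, 3386 and 3204 in the pupae (log2 fold change -3.03, standard error 0.37, adjusted p = 0.00257). COX3 fell by 2.89 on the log2 scale. Of 95 genes of the respiratory chain and ATP synthase 66 were lower and 2 higher, with a median of -1.69. The higher count was 1 without 5th instar replicate 1 or pupa replicate 1 or 3 and 0 without pupa replicate 2. With fragment scaling 19 of 94 were lower and 22 higher, and the median was -1.57 relative to all genes. The ATP synthase lipid-binding protein (LOC114353963), the most abundant of them, went from 1335, 3032 and 2685 to 665, 608 and 693 FPKM (log2 fold change -1.76, standard error 0.32, adjusted p = 0.00889) and had no call with fragment scaling (-0.83).

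Of 19 glycolytic genes 12 were lower and 1 higher, with a median of -1.55. Phosphoglycerate mutase 1 (LOC114365332) fell from 229, 691 and 703 to 53.7, 50.3 and 54.7 FPKM (log2 fold change -3.16, standard error 0.44, adjusted p = 0.00367), and with fragment scaling 8 of the list were lower and 4 higher. The lower count was 4 without 5th instar replicate 2 or 3 or pupa replicate 1, 3 without pupa replicate 2 and 6 without pupa replicate 3. The higher gene, pyruvate kinase 2-like LOC114361018, at 2.14, 3.396 and 2.99 FPKM in the pupae, was not called without any library but 5th instar replicate 3.

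In the deposited scaling, on which this count rests, 75 of 78 cytosolic ribosomal proteins had all pupal libraries below all larval ones, against 26% of all genes. Of the 78, 4 passed the threshold as lower and none as higher (75 and 0 at an unadjusted p under 0.05, 4 and 0 by limma-voom). Their median was -0.67 in the deposited scaling. With fragment scaling it was 0.25, or -0.53 relative to all genes, and none was called. Their share of the fragments was 8.94 ± 2.25% in the larvae and 10.3 ± 0.30% in the pupae (SD, n = 3). By library it was 11.5, 7.28 and 8.04% and 9.93, 10.4 and 10.5%, with overlap between the stages. The lower count was 2 without 5th instar replicate 2 and 1 without pupa replicate 1. Of 43 proteasome subunits 17 were lower and 1 higher, with a median of -1.08, and none was lower with fragment scaling. That count was 4 without 5th instar replicate 1, 1 without pupa replicate 1 or 2 and 8 without pupa replicate 3, and the higher gene was lost without 5th instar replicate 1 or pupa replicate 2. Of the aminoacyl-tRNA ligases 1 of 23 was lower, glycine--tRNA ligase (LOC114352424), at 30.4, 20.7 and 47.9 FPKM in the larvae and 13.5, 10.6 and 14.5 in the pupae. It was lost without 5th instar replicate 3 or any pupa, and 2 ligases were lower without 5th instar replicate 1 or 2.

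Enzymes of lysosomes gave 4 lower and 2 higher genes of 16, and 4 lower and 9 higher with fragment scaling. Cathepsin K-like LOC114363183, enriched in the hemolymph libraries, fell from 31.997, 85.1 and 199 to 1.68, 1.93 and 1.42 FPKM (log2 fold change -4.95, standard error 0.60, adjusted p = 0.00258). Lysosomal alpha-mannosidase-like LOC114351444 rose from 9.997, 2.97 and 5.73 to 28.3, 32.8 and 33.5 FPKM (log2 fold change 2.29, standard error 0.36, adjusted p = 0.00568). None of 14 genes matched to autophagy by description was called (none higher and 1 lower at an unadjusted p under 0.05, none by limma-voom), although 7 were higher with fragment scaling. The list missed microtubule-associated proteins 1A/1B light chain 3B-like LOC114359393, named after a protein of autophagy and chosen after its values were seen. It rose from 2.46, 0.693 and 1.04 to 29.5, 49.5 and 40.3 FPKM (log2 fold change 4.13, standard error 0.32, adjusted p = 7.91e-04, limma). Of 27 cell death genes 2 were higher and none lower (3 and 5 at an unadjusted p under 0.05, 2 and 1 by limma-voom), 1 without pupa replicate 1 and none without 5th instar replicate 3 or pupa replicate 2; 1 was lower without 5th instar replicate 1 or 3 or pupa replicate 3. With fragment scaling 9 of 28 were higher and none lower. The death-associated inhibitor of apoptosis 1-like gene LOC114350248 had 86.5, 59.8 and 50.9 FPKM in the larvae and 138, 159 and 133 in the pupae. Of the heat shock proteins, which keep proteins folded, 3 of 23 were lower and 1 higher, with 5 lower and 3 higher without 5th instar replicate 1 and 2 higher without 5th instar replicate 2. With fragment scaling 1 of 24 was lower and 5 higher. The list missed the small heat shock protein LOC114354721, given below with the hemolymph genes, which rose by 4.11 on the log2 scale. The 2 genes described as heat shock protein 68-like went in opposite directions. LOC114356221 fell from 194, 131 and 135 to 11.4, 30.2 and 12.7 FPKM and LOC114358443 rose from 4.81, 5.95 and 6.48 to 23.2, 23.8 and 18.8.

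Among immune genes more were higher than lower. Of 60 genes of recognition and antimicrobial defence 13 were higher and 4 lower, with a median of 0.69, and with fragment scaling 31 of 62 were higher and 3 lower. The higher count was 20 without 5th instar replicate 1 and 8 without 5th instar replicate 3 or pupa replicate 3, and the lower count 2 without pupa replicate 2. Peptidoglycan recognition protein-like LOC114352831, of the family that binds bacterial cell walls, had 16.6, 4.52 and 1.02 FPKM in the larvae and 25.7, 142 and 146 in the pupae (log2 fold change 3.83, standard error 0.95, adjusted p = 0.0246). That call was lost without 5th instar replicate 2 or 3 or pupa replicate 2 or 3 (3.07 to 3.79, adjusted p 0.065 to 0.086). The antimicrobial peptides attacin and gloverin were abundant in the pupae and did not pass the test in the deposited scaling. Attacin-like LOC114358494 had 318, 67.7 and 16.3 FPKM in the larvae and 369, 649.8 and 521 in the pupae (log2 fold change 2.79, adjusted p = 0.0685). Gloverin-like LOC114358477 had 262, 95.8 and 14.6 and 189.9, 438 and 693 FPKM (log2 fold change 2.40, adjusted p = 0.118). In both, 5th instar replicate 1 stood above the other larvae. Without it both were called (3.86 and 3.32, adjusted p = 0.007 and 0.038), as they were with fragment scaling (3.71 and 3.31, adjusted p = 0.015 and 0.024), and the attacin also with all 18 stage libraries in 1 fit (adjusted p = 0.023). Hemolin-like LOC114351522, the most abundant gene of the list, overlapped at 2071, 2623 and 1531 and 1151, 2561 and 1714 FPKM. Beta-1,3-glucan-binding protein-like LOC114366488, with a midgut mean of 1028 FPKM, fell from 66.004, 138 and 72.4 to 12.1, 22.1 and 20.4 FPKM.

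Among enzymes of lipid synthesis and of detoxification more were called lower than higher in the deposited scaling. Of 46 desaturases, elongases and reductases 19 were lower and 3 higher, with 12 lower and at most 1 higher without pupa replicate 1 or 2, 8 higher without 5th instar replicate 1, 1 higher without 5th instar replicate 2 or 3, and none without pupa replicate 3. With fragment scaling 12 of 47 were lower and 13 higher. Acyl-CoA Delta(11) desaturase-like LOC114363234 fell from 38.1, 72.8 and 231 to 0.202, 0.288 and 1.35 FPKM (log2 fold change -5.83, standard error 0.65, adjusted p = 0.00201). Of 47 cytochromes P450 18 were lower and 2 higher, and of 40 glucosyl and glutathione transferases 17 and 1. With fragment scaling the lower and higher counts were 10 and 11 for the cytochromes and 10 and 8 for the transferases. Their medians, -0.64 and -0.57 in the deposited scaling, were then 0.14 and 0.19, so that their sign depended on the scaling. Relative to all genes they were -0.65 and -0.60. Cytochrome P450 4C1-like LOC114354146 fell from 12.8, 41.7 and 33.7 to 0.0498, 0.213 and 0.079004 FPKM (log2 fold change -4.62, standard error 0.42, adjusted p = 0.00112), while P450 6B5-like LOC114365280 rose from 1.96, 0.234 and 0.481 to 10.5, 6.36 and 4.48. The higher transferase, LOC114360773, lost its call without 5th instar replicate 2 or 3 or pupa replicate 1 or 3. Of 37 antioxidant enzymes and iron-binding proteins 16 were lower and 1 higher (2 higher without pupa replicate 1), with a median of -0.70. With fragment scaling 6 were lower and 4 higher, and the median was 0.14, or -0.65 relative to all genes. Peroxidase-like LOC114363884 fell from 16.1, 91.1 and 92.6 to 0.0685, 0 and 0 FPKM, and ferritin-3-like LOC114354744 rose from 0.859, 0.307 and 0.2104 to 6.55, 5.51 and 3.98.

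**Figure D4:**
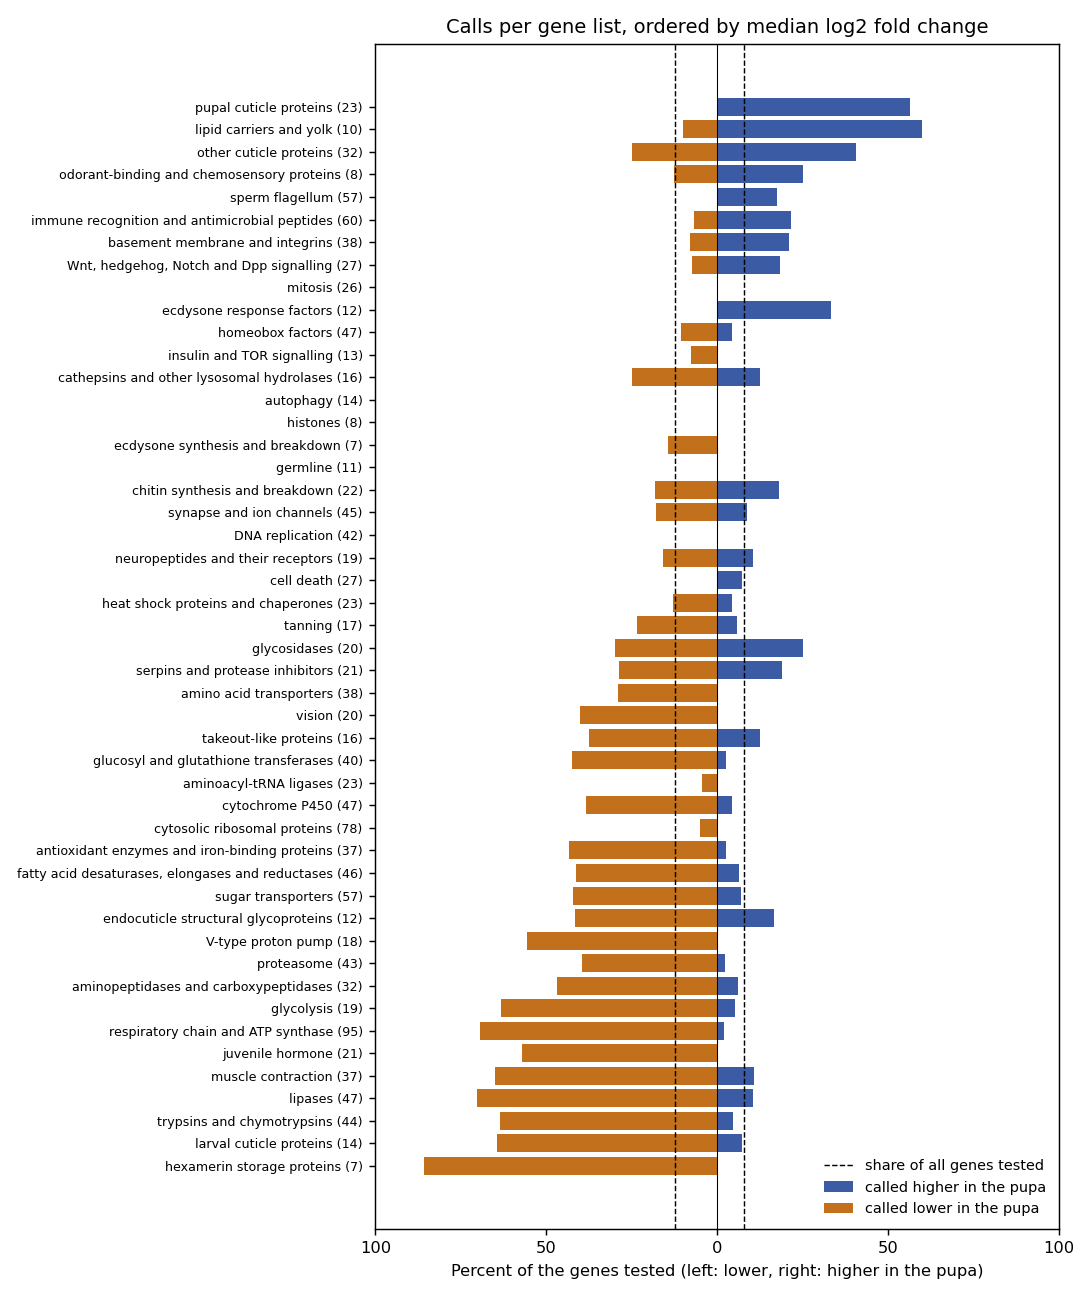
Percent of the genes tested in each list that were called higher (right, blue) or lower (left, orange) in the pupa, for lists with 7 or more genes tested, in order of their median log2 fold change. Dashed lines mark the 7.82% and 12.4% of all genes. Pupal cuticle proteins and the list of lipid carriers and yolk, which holds eggshell genes, lead on the right and hexamerins, respiratory chain and lipases on the left. With fragment scaling the medians of some lists turn positive, among them those of ribosomal proteins and cytochromes P450 (0.25 and 0.14). Relative to all genes, those of ribosomal proteins and cytochromes P450 are then -0.53 and -0.65.

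Some sperm genes rose, and no gene of dividing cells was called in the deposited scaling. Of 57 genes of the sperm flagellum and testis 10 were higher and none lower (41 and 1 at an unadjusted p under 0.05, 20 and 1 by limma-voom), with a median of 0.77. In the deposited scaling 43 had all pupal libraries above all larval ones, against 24.5% of all genes. The higher count was 5 without pupa replicate 2, and 1 was lower without 5th instar replicate 1. With fragment scaling 48 of 63 were higher and none lower. Sperm-specific protein Don juan (LOC114360061), named after a *Drosophila* protein of the sperm tail, had 23.7, 20.4 and 16.8 FPKM in the larvae and 59.3, 64.9 and 46.6 in the pupae (log2 fold change 1.44, standard error 0.20, adjusted p = 0.00389), and a mean of 67.7 FPKM in the adult. The pupal pools held males in equal part, and the sex of the larvae is not given, so sex and stage cannot be told apart here. None of 11 germline genes was called (3 higher and 2 lower at an unadjusted p under 0.05, 1 and 1 by limma-voom). Piwi-like protein Siwi (LOC114355476) had 18.98, 19.6 and 20.2 FPKM in the larvae and 21.8, 18.2 and 18.2 in the pupae. None of 42 genes of DNA replication (none higher and 6 lower at an unadjusted p under 0.05, none by limma-voom), of 26 mitotic genes (12 and 0, and 3 and 0) and of 8 histones (3 and 1, and none) was called either. Leaving out a library gave at most 2 calls in any of these 4 lists, while with fragment scaling 5 of 11 germline genes, 1 of 43 of DNA replication, 17 of 27 mitotic genes and 4 of 8 histones were higher and none was lower. Proliferating cell nuclear antigen (LOC114363354), the clamp of the replication fork, had 43.4, 40.5 and 46.6 FPKM in the larvae and 38.5, 39.8 and 29.7 in the pupae.

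Some genes of patterning and of the cell surface were higher and others lower in the pupa. Of 27 genes of Wnt, hedgehog, Notch and Dpp signalling 5 were higher and 2 lower (3 higher without 5th instar replicate 2, and 2 without 5th instar replicate 3 or pupa replicate 1 or 2). Frizzled-4 (LOC114354038), a Wnt receptor, had 3.92, 1.36 and 2.79 FPKM in the larvae and 11.2, 7.78 and 7.56 in the pupae (log2 fold change 1.46, standard error 0.31, adjusted p = 0.0143; without pupa replicate 1, 1.30 and adjusted p = 0.055). Of 47 homeobox factors 2 were higher and 5 lower, with 4 higher without 5th instar replicate 1 and 3 lower without 5th instar replicate 2 or any pupa. Homeobox protein 2-like LOC114354818 fell from 157, 242 and 215 to 15.3, 16.8 and 9.73 FPKM (log2 fold change -3.79, standard error 0.26, adjusted p = 5.08e-04) and homeobox protein vnd-like LOC114350075 rose from 1.24, 0.451 and 0.2497 to 6.17, 10.9 and 6.77. Of 38 genes of the basement membrane and integrins 8 were higher and 3 lower. With fragment scaling, in which 35.4% of all genes were higher and 6.53% lower, the higher and lower counts were 21 and 1 of 27 for the signalling genes, 26 and 2 of 52 for the homeobox factors and 25 and 2 of 39 for the basement membrane and integrins. Collagen alpha-2(IV) chain-like LOC114350083 fell from 259, 48.997 and 584 to 0.184, 1.99 and 1.197 FPKM and had a mean of 8454 FPKM in the silk gland, and collagen alpha chain CG42342 (LOC114359952) rose from 3.08, 0.667 and 1.19 to 8.91, 6.94 and 8.19.

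Nerve and sense genes gave calls in both directions. Of 45 synapse and ion channel genes 8 were lower and 4 higher (2 higher with any pupa left out). Synaptic vesicle glycoprotein 2C (LOC114363586) fell from 118, 511 and 557 to 1.42, 4.35 and 10.1 FPKM (log2 fold change -5.95, standard error 0.76, adjusted p = 0.00297). Of 19 neuropeptides and their receptors 3 were lower (1 without 5th instar replicate 2 or pupa replicate 1 or 3) and 2 higher, with neuropeptide-like 4 (LOC114357694) going from 581, 2099.6 and 1400.1 to 92.3, 94.8 and 133 FPKM and neuropeptide-like 3 (LOC114353428) from 0.292, 0.209 and 0.215 to 17.1, 23.6 and 7.37. Of 20 vision genes 8 were lower and none higher (8 and 3 at an unadjusted p under 0.05, 7 and 1 by limma-voom; 5 lower without 5th instar replicate 3 or pupa replicate 1, and 1 higher without 5th instar replicate 3 or pupa replicate 2). Retinol-binding protein pinta-like LOC114358030, of a family that carries pigment precursors in the fly eye, led these, with 28.6, 87.4 and 63.4 FPKM in the larvae and 0.853, 1.55 and 0.489 in the pupae. Of 8 odorant-binding and chemosensory proteins 2 were higher and 1 lower (1 higher without 5th instar replicate 3 or pupa replicate 1 or 2, and 3 lower without 5th instar replicate 3). Ejaculatory bulb-specific protein 3-like LOC114363416 fell from 612, 2954 and 1985 to 6.36, 15.01 and 5.23 FPKM (log2 fold change -7.41, standard error 0.64, adjusted p = 0.00104). With fragment scaling the higher and lower counts were 12 and 9 of 53 for the synapse and channel genes, 5 and 1 of 23 for the neuropeptides and their receptors, 5 and 3 of 22 for vision and 3 and 1 of 8 for the odorant-binding and chemosensory proteins. Of 72 odorant, gustatory and ionotropic receptors 1 passed the filter on low values.

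Genes marked by tissue, taken from libraries of 3rd instar larvae made from other animals, were counted in the same way. A gene was marked when its mean in a tissue was at least 10 FPKM and at least 5 times that in each of the other 3 tissues. Of 504 midgut genes tested 260 were lower and 26 higher in the pupa (51.6% and 5.16%), with a median log2 fold change of -1.27. Of 305 silk gland genes 131 were lower and 18 higher (43.0% and 5.90%), with a median of -0.88, and of -1.96 when the tissue values were scaled by the recovered fragments, which marked 235 genes in place of 387. Fat body genes gave 108 lower and 78 higher of 443 and a median of 0.11, and hemolymph genes 27 lower and 31 higher of 222 and a median of 0.36. A mark rests on a mean, so 1 library can make it. The fat body genes with the largest falls include LOC114357244, at 298, 0 and 1.005 FPKM in the fat body libraries, and cuticle protein 16.5-like LOC114359849, at 39.02, 1.81 and 10.1. Relative to all genes with fragment scaling the 4 medians were -1.35, -0.90, 0.10 and 0.28. Trypsin, alkaline C-like and chymotrypsin-1-like above were among the midgut genes with the largest falls, and among the hemolymph genes protein lethal(2)essential for life-like LOC114354721, a small heat shock protein, rose from 33.9, 15.3 and 14.9 to 490.2, 203 and 464 FPKM. These tissues were not sampled in the 5th instar or the pupa.

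**Figure D5:**
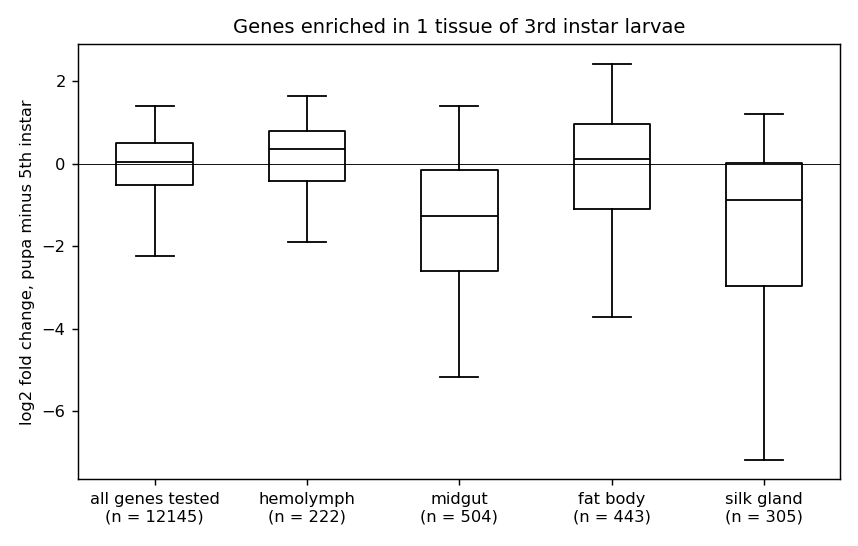
Log2 fold change of the pupa over the 5th instar for all 12145 genes and for genes marked by hemolymph (222), midgut (504), fat body (443) and silk gland (305) of 3rd instar larvae; the line is the median, the box the quartiles and the whiskers the 5th to 95th percentile. Midgut and silk gland genes lie lower than all genes and reach far down. With fragment scaling the medians of all groups move up, the midgut to -0.57 and the silk gland to -0.11. These values are not relative to all genes.

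Outside these systems the largest falls belonged to a mixed set of abundant larval transcripts. The most abundant was diapause-specific peptide-like LOC114359322, named after a beetle antifungal peptide, with 22109, 48295 and 44782 FPKM in the larvae and 917, 1699.8 and 703 in the pupae (log2 fold change -5.14, standard error 0.43, adjusted p = 9.44e-04). Psychimicin-like LOC114363420, named after an antimicrobial peptide of bagworm moths, had 1645, 3308 and 3152 and 3.17, 4.64 and 2.58 FPKM (log2 fold change -9.20, standard error 0.32, adjusted p = 5.27e-05). In the 1st and 3rd instars its means were 0.334 and 1.44 FPKM. La1-like protein 15 (LOC114350747) and suppressor protein SRP40-like LOC114357244 fell by 9.22 and 9.03 on the log2 scale. Platelet binding protein GspB-like LOC114366142 went from 4703, 1268 and 13989.9 to 0.563, 6.65 and 1.997 FPKM (log2 fold change -10.37, standard error 0.94, adjusted p = 0.00112) and had a mean of 166473 FPKM in the silk gland. Hyphally regulated cell wall protein 3-like LOC114352654 likewise was highest in the silk gland, at a mean of 9065 FPKM, and fell by 8.85. Both names come from likeness to proteins of microbes and say little of the role of these genes in a moth. Among the rises outside the cuticle lists, DNA translocase FtsK (LOC114350099), also named after a bacterial protein, went from 0.244, 9.14 and 1.08 to 369, 885 and 1138 FPKM (log2 fold change 7.92, standard error 0.82, adjusted p = 0.00165).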

How the data were processed

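RNA of whole 5th instar larvae and pupae, 3 pooled libraries each, was poly-A selected, made into TruSeq libraries and sequenced as paired ends by the authors. The submitters' processing notes name HISAT2 2.0.5, and the study's methods name RSEM with default settings for quantifying sequences taken from the genome. RSEM divides reads with several matches by estimate, whereas the deposited values gave whole fragments; which step made and scaled the table, and whether strand was used, is unstated. A mouse build is named in the labels, which the scaffold names of the table do not match; coordinates are those of the deposited table, for the assembly ASM419383v1.

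The authors deposited 1 table of FPKM values, whose header names no unit. Each value times the gene length was a whole multiple of a single amount per library (100% of values up to 200 fragments, within 0.02), which gave the fragments back. Stages were compared by limma 3.58.1 (limma-trend, R 4.3.3) on log2(FPKM + 1), computed here from the deposited values, with a call at adjusted p under 0.05 and an absolute log2 fold change of at least 1. Tables and figures used Python 3.11.15, numpy 2.4.6, pandas 2.3.3 and matplotlib 3.10.9. The test was checked on simulated data. Alternatives were a pseudocount of 0.1, no filter, fragment scaling with and without the mitochondrial genome, medians of ratios, limma-voom on the fragments, all 18 stage libraries, a replicate block and each library left out; with 1 library left out the filter asked for 2 libraries.

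Named genes were the 12 largest described calls in each direction that did not overlap and had a mean of at least 10 FPKM in the higher stage, the 6 most abundant genes of each stage, the extremes and the most abundant member of each of 51 lists, and all members of 5 lists (ecdysone synthesis, ecdysone response, juvenile hormone, hexamerins and tanning); the attacin, gloverin, apolipophorin, myosin, troponin, flightin, chitin synthase, E93-type, ribosomal RNA and cuticle run genes were added after their values were seen. The lists hold 1437 genes tested and match gene descriptions. Members and lists were chosen with earlier results of these data known. Peritrophic matrix and gut mucins gave no call in 1 gene tested (none at an unadjusted p under 0.05 or by limma-voom). The table's descriptions were used for gene names; 11293 of the genes tested match a RefSeq entry.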

Additional observations from a re-analysis of the deposited data

How the results depend on the processing

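The counts of 950 higher and 1500 lower genes depended most on how the libraries were scaled. Scaled by the recovered fragments they were 4561 and 842, and by the recovered fragments without the mitochondrial genome, an alternative chosen after seeing the data, 3994 and 919. With fragment scaling the median log2 fold change, here not relative to all genes, was 1.06 (0.36 in the deposited scaling) for the genes marked by hemolymph. It was -0.57 (-1.27) for midgut, 0.88 (0.11) for fat body and -0.11 (-0.88) for silk gland. The silk gland median was -1.96 where the tissue values were scaled by fragments. No named gene with a call changed direction under any setting run.

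Other settings moved the counts by less than 1.5 times: 1229 higher and 1627 lower with a pseudocount of 0.1, 887 and 1414 with no filter on low values, 961 and 1638 with medians of ratios, 1040 and 1596 by limma-voom on the recovered fragments and, with all 18 stage libraries fitted together, 1006 and 1454. Leaving out each library in turn gave 747 to 1069 higher and 1136 to 1746 lower genes. Of the 141 named genes with a call, 7 to 21 lost it when a library was left out, 13 with fragment scaling and 8 by limma-voom, and 17 of the 64 without a call gained one with fragment scaling.

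Whether the replicate numbers pair the libraries is unstated in the sources used here. Deviations of libraries with the same number from their stage means correlated at 0.040, 0.067 and -0.027 over genes, and a fit with the number as a block gave 892 higher and 1448 lower genes, with 6 of the named calls lost.

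Depth limits what can be said of genes at 0: 3 fragments over 3 libraries were the floor. With 3 pools a stage, of unstated pupal age, a difference between stages holds for the moments sampled.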

Other observations

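The cuticle genes that rose in the pupa were compared with their levels in the 3rd instar and adult libraries, a comparison chosen after their values were seen. Of the 29 such genes, 27 had a higher mean in the 3rd instar than in the 5th. They were chosen for low values in the same 5th instar libraries, which by itself favours a higher mean in the 3rd instar, so the values are a description only. A mean of at least 10 FPKM was found for 22 of them in the 3rd instar and for 7 in the 5th. Their median level was 43.7 FPKM in 3rd instar larvae against 2.90 in 5th instar larvae, 278 in pupae and 23.8 in adults. The pupal cuticle protein PCP52-like gene LOC114362178 had 376, 125 and 201 FPKM in the 3rd instar libraries. The 22 cuticle genes that were lower in the pupa had medians of 682 FPKM in 3rd and 368 in 5th instar larvae, of 0.811 in pupae and of 0.925 in adults. When within the 3rd instar the animals were taken is unstated in the sources used here.

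Genes without a description were also among the largest changes. The 4 such genes with the largest increases, chosen after their values were seen, all lie on scaffold NW_021133562.1, which also holds 18 of the cuticle genes. LOC114357690, at 409189 to 409718, had 0, 0.444 and 0 FPKM in the larvae and 1905, 1957 and 5361 in the pupae (log2 fold change 11.23, standard error 0.43, adjusted p = 8.07e-05, limma). LOC114357684, at 256964 to 261098, had 3.42, 25.6 and 1.51 FPKM in the larvae and 3177, 3466 and 4184 in the pupae (log2 fold change 9.07). LOC114357718, at 251607 to 252162, and an unannotated gene model at 367145 to 371016, rose by 8.99 and 8.44. Of the largest falls without a description several had their highest tissue mean in the silk gland. LOC114366374 had 2606, 145 and 1919 FPKM in the larvae and 0.889, 1.69 and 1.79 in the pupae, with a mean of 104972 FPKM in the silk gland libraries.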
